A study of Mus musculus with 12 samples.

Results

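The subunits of the 3 nuclear RNA polymerases were followed in mouse ear fibroblasts on elastic and viscoelastic gels. Members were the genes of the count table whose symbol begins with Polr1, Polr2 or Polr3 followed by a letter from a to l, and 30 of the 33246 listed genes met this rule. Of these, 29 encode polymerase subunits, and the remaining one, Polr1has, is a neighbouring gene named as the antisense partner of Polr1h. All 30 members passed the filter on low counts, with at least 153 counts in every library, and 14542 genes in all were tested. Of the 29 subunits, 6 are the large catalytic ones, 8 are of intermediate size and 15 are small. By enzyme, 5 belong to Pol I alone, 7 to Pol II alone and 10 to Pol III alone, while 5 are shared by all 3 enzymes and 2 by Pol I and Pol III.

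RNA was measured by sequencing of polyadenylated RNA in 12 libraries, with 3 biological replicates in each of 4 groups: elastic gels of 2 kPa, elastic gels of 20 kPa, slow-relaxing viscoelastic gels of 2 kPa and slow-relaxing viscoelastic gels of 20 kPa. All groups held primary ear fibroblasts from 1-month-old mice at passage 2, seeded on alginate hydrogels carrying an RGD adhesion peptide and collected after 48 h. The elastic gels were crosslinked covalently and the viscoelastic gels ionically, so crosslinking chemistry and stress relaxation cannot be told apart. The design sets the gel types side by side at each stiffness and lets the 2 stiffnesses be compared in this respect. The libraries held 36626221 to 43612804 counts, and mitochondrial genes took 1.77% to 3.34% of them. Summed fibroblast markers ran from 57510 to 79530 CPM (counts scaled to a common library size) and were lowest on 20-kPa viscoelastic gels (57510 to 61040 CPM). Summed cartilage markers, which include Col2a1 and Acan, ran from 3927 to 5546 CPM and were lowest on 20-kPa elastic gels (3927 to 4067 CPM), below every library of the other 3 groups, which overlapped each other. Matn1 stayed under 10 counts in every library, and each of the other marker lists summed to at most 7.66 CPM. Marker sums were scaled by total counts alone, unlike the other CPM values given here. Whether the cartilage markers stay apart with the other scaling was not worked out. The part of these lists in the results was not tested.

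RNA polymerases copy DNA into RNA, and eukaryotic cells divide this work among 3 related enzymes. Pol I makes the large ribosomal RNA precursor in the nucleolus, Pol II makes messenger RNA, and Pol III makes transfer RNA and other short RNAs. In each enzyme a pair of large subunits forms the active site, smaller subunits stabilise the core or join several of the enzymes, and further subunits form a stalk or act like initiation and elongation factors. Demand for Pol I and Pol III products rises with cell growth, and fibroblasts adjust growth to the mechanics of the surface they adhere to.

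The stretches just ahead of the transcription start are shown for genes whose transcripts differ below: the paired large subunits of Pol I, the largest subunit of Pol II, 1 small Pol II subunit, and the alternative Pol III subunits Polr3g and Polr3gl. Each is 120 bases of the GRCm38 genome, from the RefSeq promoter table, written 5′ to 3′ on the strand of the gene and ending at the base before the start. Capitals mark matches on either strand to any of 6 short motifs. These were the GC box, spelled GGGCGG and read by Sp factors, and the site of the ETS family, spelled CCGGAAG. The others were the CCAAT box of that spelling, the TATA box, spelled TATAAA, and the sites of the factors YY1 and NRF1, spelled AAGATGGC for the former and GCATGCGC for the latter.
Polr1a (chr6:71908933-71909052, plus strand): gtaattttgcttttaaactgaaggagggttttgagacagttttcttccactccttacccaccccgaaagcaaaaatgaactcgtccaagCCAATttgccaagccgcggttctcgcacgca
Polr1b (chr2:129100875-129100994, plus strand): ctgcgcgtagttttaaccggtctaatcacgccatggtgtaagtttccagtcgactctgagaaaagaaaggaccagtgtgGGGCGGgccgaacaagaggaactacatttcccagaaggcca
Polr2a (chr11:69758638-69758757, minus strand): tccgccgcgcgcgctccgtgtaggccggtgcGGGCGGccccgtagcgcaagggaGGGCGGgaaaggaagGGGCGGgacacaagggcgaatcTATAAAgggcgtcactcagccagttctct
Polr2j (chr5:136116511-136116630, plus strand): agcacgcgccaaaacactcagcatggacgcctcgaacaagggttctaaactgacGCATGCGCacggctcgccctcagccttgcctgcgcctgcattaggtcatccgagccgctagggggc
Polr3g (chr13:81711014-81711133, minus strand): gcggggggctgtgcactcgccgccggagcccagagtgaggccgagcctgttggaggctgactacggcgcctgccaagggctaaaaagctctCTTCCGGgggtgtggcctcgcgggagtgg
Polr3gl (chr3:96594182-96594301, minus strand): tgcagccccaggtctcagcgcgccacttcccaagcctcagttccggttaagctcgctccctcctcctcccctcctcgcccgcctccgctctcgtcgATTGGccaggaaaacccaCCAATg

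Promoter windows of 300 bases, 250 before to 50 after the start, were found for 24 of the 30 members and for 27025 genes in all. The GC box was present in 13 of the 24 members (54.2%) and in 38.2% of all genes, and the ETS letters in 7 (29.2%) and 9.93%. The CCAAT box was present in 8 members (33.3%) against 41.1% of all genes, the NRF1 letters in 2 (8.33%) against 3.05%, the TATA box in 2 (8.33%) against 15.7%, and the YY1 letters in 0 against 3.19%. These matches describe letters and are no sign of binding. Polr1h and Polr1has, both among the 8 members with the CCAAT box, start next to each other on opposite strands. Their windows overlap, so the same CCAAT letters can count for both. Large and small subunits both carried the GC box, in 3 of 5 and 6 of 11 windows.

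Per kilobase of exon, the levels of the members spanned a wide range. Exon length joins all annotated exons of a gene, so exons absent from the expressed transcript would lower its level and place in this order. Polr2a, the largest Pol II subunit with the repeat tail that is phosphorylated during transcription, was highest at 48.2 ± 4.08 CPM per kb (SD, n = 12). Its partner at the active site, Polr2b, followed at 26.1 ± 1.36 CPM per kb, and the stalk subunit Polr2g at 19.4 ± 1.06 CPM per kb. The large subunits of the other enzymes lay well below: Polr1a at 7.10 ± 0.760, Polr3b at 6.42 ± 0.527, Polr3a at 4.79 ± 0.339 and Polr1b at 3.85 ± 0.512 CPM per kb. Among the lowest levels were those of Polr1e and Polr3g, at 2.51 ± 0.261 and 1.44 ± 0.191 CPM per kb. Many neighbours in this order did not differ beyond their spread, such as Polr2h, Polr2k, Polr2f and Polr2i at 8.18 ± 0.891, 8.03 ± 1.62, 7.65 ± 1.04 and 7.46 ± 1.27 CPM per kb.

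**Figure D1:**
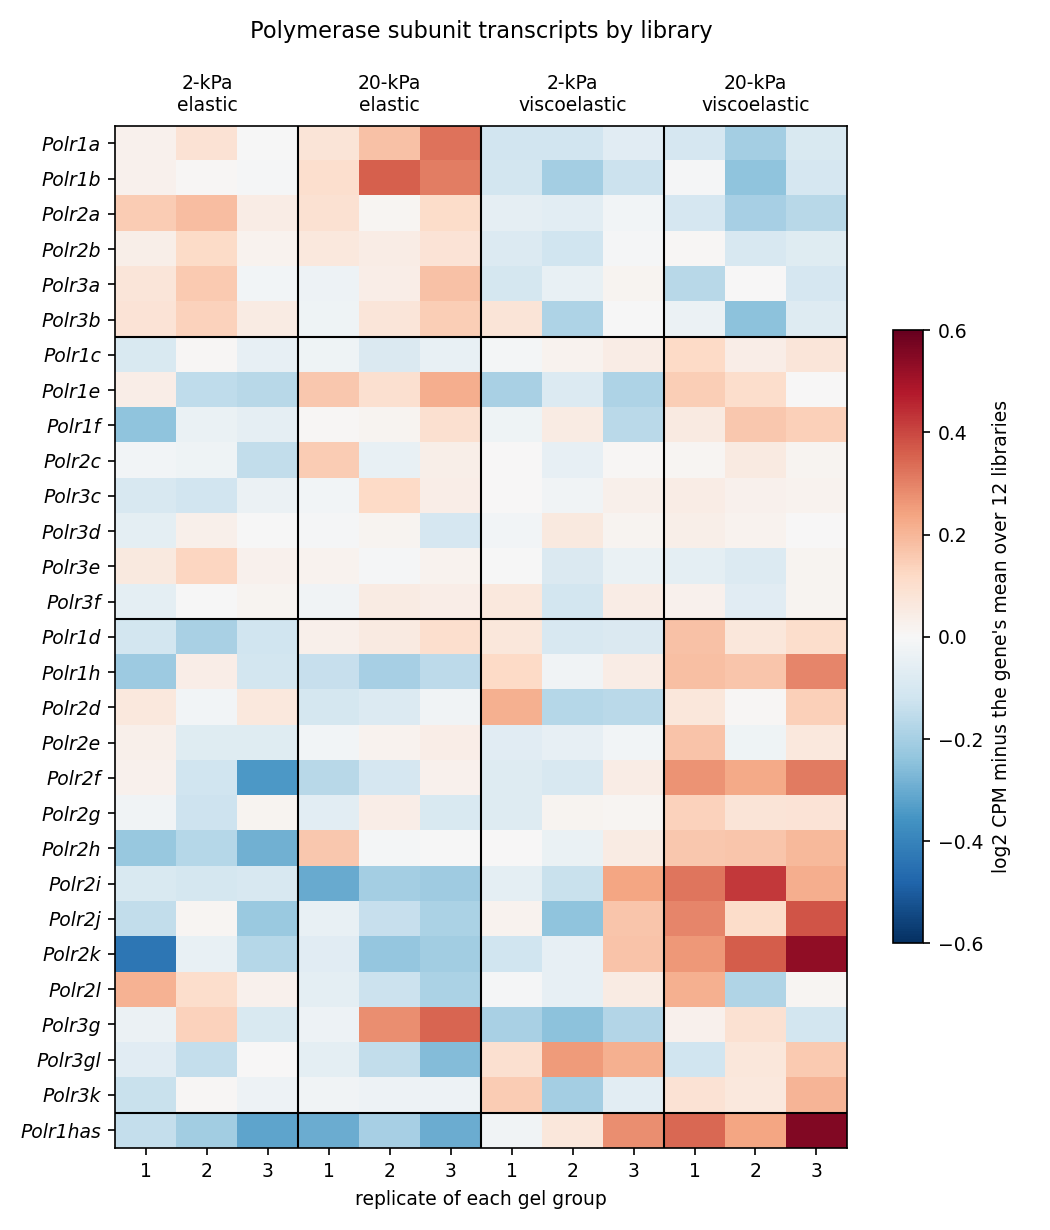
Heat map of the members (rows, grouped from top to bottom as large catalytic, intermediate, small and Polr1has) in the 12 libraries (columns, replicates 1 to 3 of each gel group), where colour is log2 CPM minus the mean of that gene over all libraries. Polr1a, Polr1b, Polr2a and Polr2b are lower in every viscoelastic column than in any elastic one, Polr1b only just. Several small subunits turn red in the 20-kPa viscoelastic columns.

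On 20-kPa viscoelastic compared with 20-kPa elastic gels, the median difference was below 0 over the large subunits and above 0 over the small ones, and 8 of the 29 subunits passed the test. All 6 large catalytic subunits had lower estimates, with a median log2 difference of -0.20, and 3 of them fell by the test. Of the 15 small subunits, 13 had higher and 2 lower estimates, with a median of 0.15, and 5 rose while 0 fell. None of the 8 intermediate subunits was called (median -0.02), and 1 had an unadjusted p below 0.05, as did 6406 of all 14542 tested genes. Calls used edgeR's quasi-likelihood test with Benjamini-Hochberg adjustment over all tested genes at an adjusted p of 0.05, by which 17.4% of all tested genes rose and 16.1% fell in this comparison, with a median of 0.02 over all of them. In all, 5 of the 29 subunits rose, a share close to that of all genes, 3 fell, a share below it, and Polr1has also rose. The median of the small subunits lay near 0 once the length trend given further on was removed. Between these gels, scaled by total counts alone, the summed cartilage markers were higher in every viscoelastic library (4158 to 5526 against 3927 to 4067 CPM). The gap was narrow, and it was not worked out with the scaling used for the members. The summed fibroblast markers were lower in every viscoelastic library (57510 to 61040 against 67820 to 68930 CPM). The part of both marker lists in the result was not tested. In bulk RNA, a lower share of cells expressing a gene and less RNA per cell cannot be told apart.

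Polr1a, the largest subunit of Pol I, had 88.5, 94.7 and 105.1 CPM on 20-kPa elastic gels and 78.2, 72.9 and 78.7 CPM on 20-kPa viscoelastic gels. The 2 groups did not overlap, and the transcript fell to 0.797 times its elastic level (log2 -0.33 ± 0.063 SE, edgeR adjusted p = 0.00143). Polr1b, its partner at the active site, had 23.8, 28.4 and 27.4 CPM on the elastic and 22.0, 18.7 and 20.7 CPM on the viscoelastic gels. It fell to 0.772 times the elastic level without overlap (log2 -0.37 ± 0.075, edgeR adjusted p = 0.00188). Polr2a had 361.8, 342.2 and 366.0 CPM on the elastic and 316.7, 295.5 and 303.0 CPM on the viscoelastic gels. It fell to 0.855 times the elastic level, again without overlap (log2 -0.23 ± 0.059, edgeR adjusted p = 0.00899). Here and below, overlap was worked out for members alone, and the share of all tested genes without overlap was not counted.

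The other 3 large subunits had lower estimates that did not pass the test at 20 kPa. Polr2b had 127.1, 125.7 and 129.0 CPM on the elastic and 122.4, 114.1 and 115.9 CPM on the viscoelastic gels (log2 -0.12 ± 0.054, edgeR adjusted p = 0.111). Polr3a, the largest Pol III subunit, had 27.3, 28.6 and 31.4 against 24.9, 27.9 and 25.9 CPM (log2 -0.15 ± 0.070, edgeR adjusted p = 0.11). These Polr3a libraries overlapped. Polr3b, its partner, had 33.1, 35.4 and 37.3 against 32.9, 28.4 and 32.0 CPM (log2 -0.18 ± 0.076, edgeR adjusted p = 0.0788), and its highest viscoelastic library lay just under its lowest elastic one. Without 20-kPa elastic replicate 1, both Polr3a and Polr3b passed the test, and Polr3b also did without 2-kPa viscoelastic replicate 2.

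The small subunits that rose at 20 kPa belonged to Pol I, to Pol II or to all 3 enzymes. Polr2i, a Pol II subunit that takes part in cleaving misincorporated transcripts, had 7.24, 7.76 and 7.69 CPM on the elastic and 11.2, 11.96 and 10.4 CPM on the viscoelastic gels. It rose 1.48-fold without overlap (log2 0.56 ± 0.096, edgeR adjusted p = 0.000602). Polr2k, a small zinc-binding subunit shared by all 3 enzymes, had 4.69, 4.20 and 4.26 CPM on the elastic and 5.90, 6.33 and 7.12 CPM on the viscoelastic gels. It rose 1.47-fold, also without overlap (log2 0.56 ± 0.121, edgeR adjusted p = 0.00307). In Polr2i, 26.8% of exon bases overlap Tbcb on the opposite strand, and the strand setting of the counts is not given in the sources used here. A pseudogene of Polr2k lies on chromosome 11, so the counts of these 2 genes are uncertain to that extent.

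Polr2f, another subunit shared by the 3 enzymes, had 17.6, 18.4 and 20.0 CPM on the elastic and 23.7, 23.1 and 24.5 CPM on the viscoelastic gels. Its groups were apart, and it rose 1.27-fold (log2 0.35 ± 0.084, edgeR adjusted p = 0.0057). Polr2j, which pairs with Polr2c early in Pol II assembly, had 15.9, 14.9 and 14.4 against 20.1, 17.7 and 21.3 CPM. It rose 1.31-fold (log2 0.39 ± 0.100, edgeR adjusted p = 0.00878), and 15.9% of its exon bases overlap Lrwd1 on the opposite strand. Its partner Polr2c, of intermediate size, differed by log2 -0.02 ± 0.065, which was within its error, and 18.1% of the exon bases of Polr2c overlap Dok4 on the opposite strand. Smaller antisense overlaps touch Polr2f (9.4% of exon bases) and Polr2h (5.4%, with Clcn2).

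Polr1h, the Pol I counterpart of Polr2i in transcript cleavage, had 13.0, 12.5 and 12.8 CPM on the elastic and 16.2, 16.1 and 17.5 CPM on the viscoelastic gels. It rose 1.3-fold (log2 0.38 ± 0.076, edgeR adjusted p = 0.00182). Polr1has, which starts next to Polr1h on chromosome 17 and runs the other way, had 5.60, 5.998 and 5.60 CPM on the elastic and 8.73, 8.10 and 10.1 CPM on the viscoelastic gels. It rose 1.56-fold (log2 0.65 ± 0.105, edgeR adjusted p = 0.000457), the largest difference of any member in this comparison. Neither gene overlapped between the groups. The related cleavage subunit of Pol III, Polr3k, had a higher estimate that did not pass the test (log2 0.15 ± 0.077, edgeR adjusted p = 0.158).

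**Figure D2:**
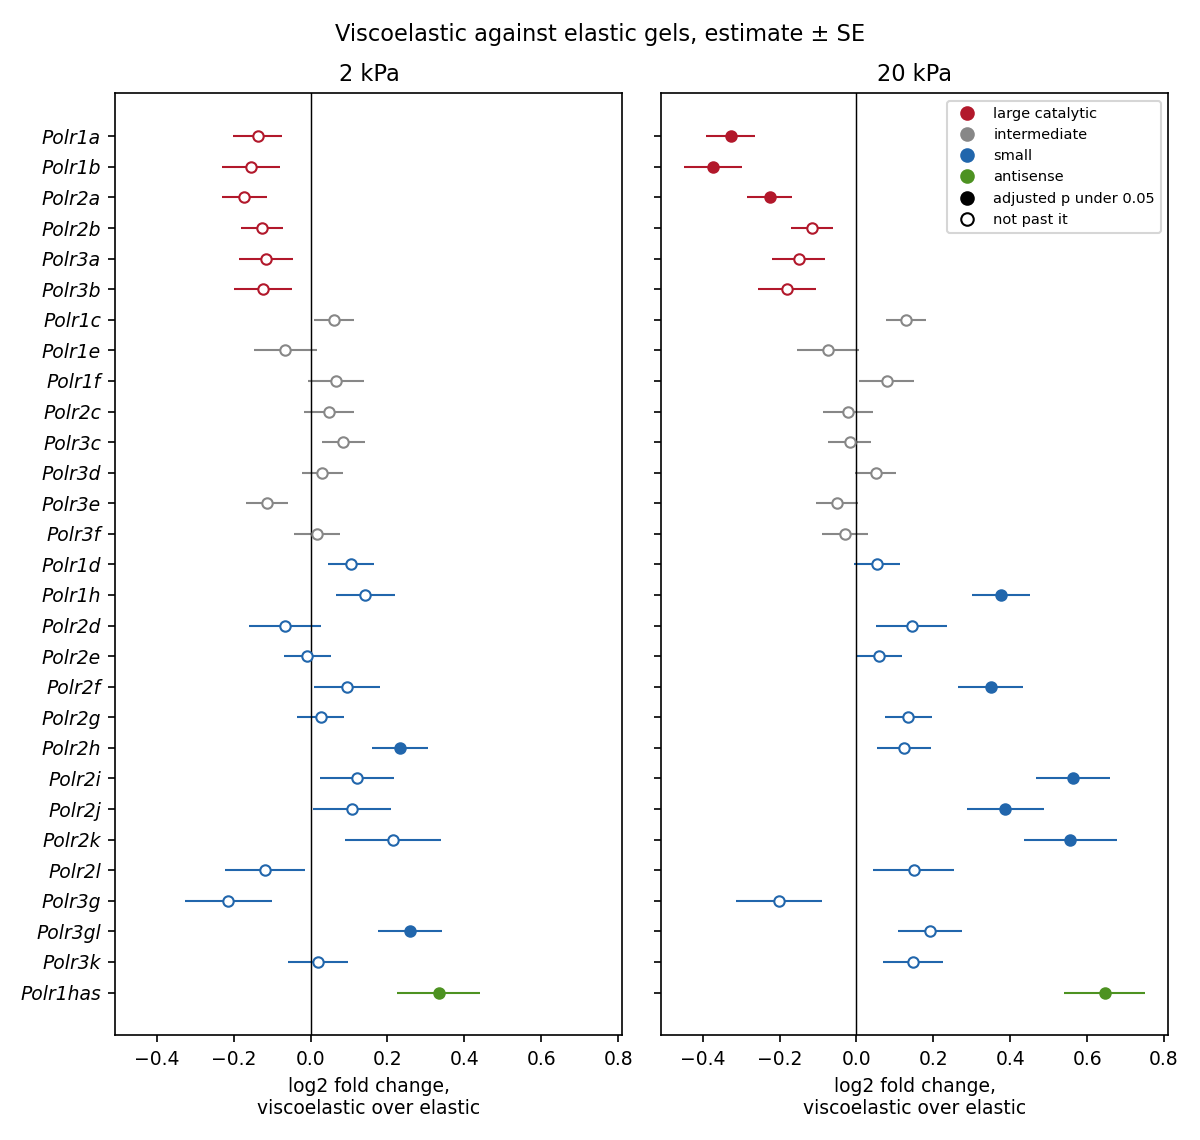
Log2 fold change of the members, viscoelastic over elastic, at 2 kPa (left) and 20 kPa (right), with bars of 1 SE and colour by size class; filled points passed an adjusted p of 0.05. All 6 large subunits lie left of 0 in both panels, and the filled small subunits at 20 kPa reach 0.56.

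By enzyme, the median log2 difference at 20 kPa was -0.07 over the 5 Pol I subunits, 0.14 over the 7 Pol II subunits, -0.03 over the 10 Pol III subunits and 0.15 over the 5 subunits shared by all. Pol III had no call in either direction. An unadjusted p below 0.05 was found for 3 of its 10 subunits and for 6406 of all 14542 tested genes. DESeq2 called the same 9 members as edgeR. Pol I had 2 subunits that fell and 1 that rose, and Pol II had 1 that fell and 2 that rose. Among the shared subunits, 2 rose. The pairs of large subunits had medians of -0.35 in Pol I, -0.17 in Pol II and -0.17 in Pol III, and differences between enzymes were not tested.

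At 2 kPa the same comparison gave class medians nearer to 0. The median was -0.13 over the large subunits, with 6 of 6 lower and 0 called by edgeR, and 0.09 over the small ones, with 10 higher and 5 lower. Among the 6 large subunits, 3 had an unadjusted p below 0.05, as did 4968 of all 14542 tested genes. DESeq2 called 1 large subunit, Polr2a. Of the members, 3 rose, namely the small subunits Polr2h and Polr3gl and the neighbouring gene Polr1has. A further 1 fell, where 8.77% of all tested genes rose and 11.1% fell. Polr2a had 377.8, 386.5 and 349.9 CPM on the elastic and 327.5, 325.5 and 336.2 CPM on the viscoelastic gels, which did not overlap (log2 -0.17 ± 0.059, edgeR adjusted p = 0.0518). The 4 calls at 2 kPa became 0 without 2-kPa elastic replicate 1 or 2, 1 without 2-kPa viscoelastic replicate 3, and 2 without 2-kPa viscoelastic replicate 1 or 2 or without 20-kPa elastic replicate 2.

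Polr2h, a subunit shared by the 3 enzymes, had 10.5, 10.9 and 10.1 CPM on 2-kPa elastic gels and 12.3, 11.96 and 12.7 CPM on 2-kPa viscoelastic gels (log2 0.23 ± 0.072, edgeR adjusted p = 0.0333). All 9 libraries of the other gels lay above the 3 libraries of 2-kPa elastic gels.

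Polr3g and Polr3gl are alternative subunits of the part of Pol III that acts in initiation, the first known for high levels in pluripotent stem cells and the second for broad expression in differentiated cells. Polr3gl had 14.3, 13.6 and 15.1 CPM on 2-kPa elastic gels against 16.0, 17.9 and 17.4 CPM on their viscoelastic counterparts, and it rose without overlap (log2 0.26 ± 0.083, edgeR adjusted p = 0.0402). Polr3g had 5.48, 6.17 and 5.27 against 4.91, 4.73 and 4.96 CPM, also without overlap (log2 -0.21 ± 0.114, edgeR adjusted p = 0.201). At 20 kPa, Polr3gl had 14.4, 13.6 and 12.6 CPM on the elastic and 13.8, 15.7 and 16.7 CPM on the viscoelastic gels, with overlap. Polr3g there had 5.49, 6.80 and 7.15 against 5.71, 5.98 and 5.19 CPM, which also overlapped. The log2 difference of Polr3g minus Polr3gl was -1.34 ± 0.189 (SD, n = 3) on 2-kPa elastic, -1.80 ± 0.107 on 2-kPa viscoelastic, -1.06 ± 0.296 on 20-kPa elastic and -1.45 ± 0.211 on 20-kPa viscoelastic gels. Polr3gl was the more abundant of the pair in all 12 libraries, also per kilobase (9.45 against 1.44 CPM per kb over all libraries).

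**Figure D3:**
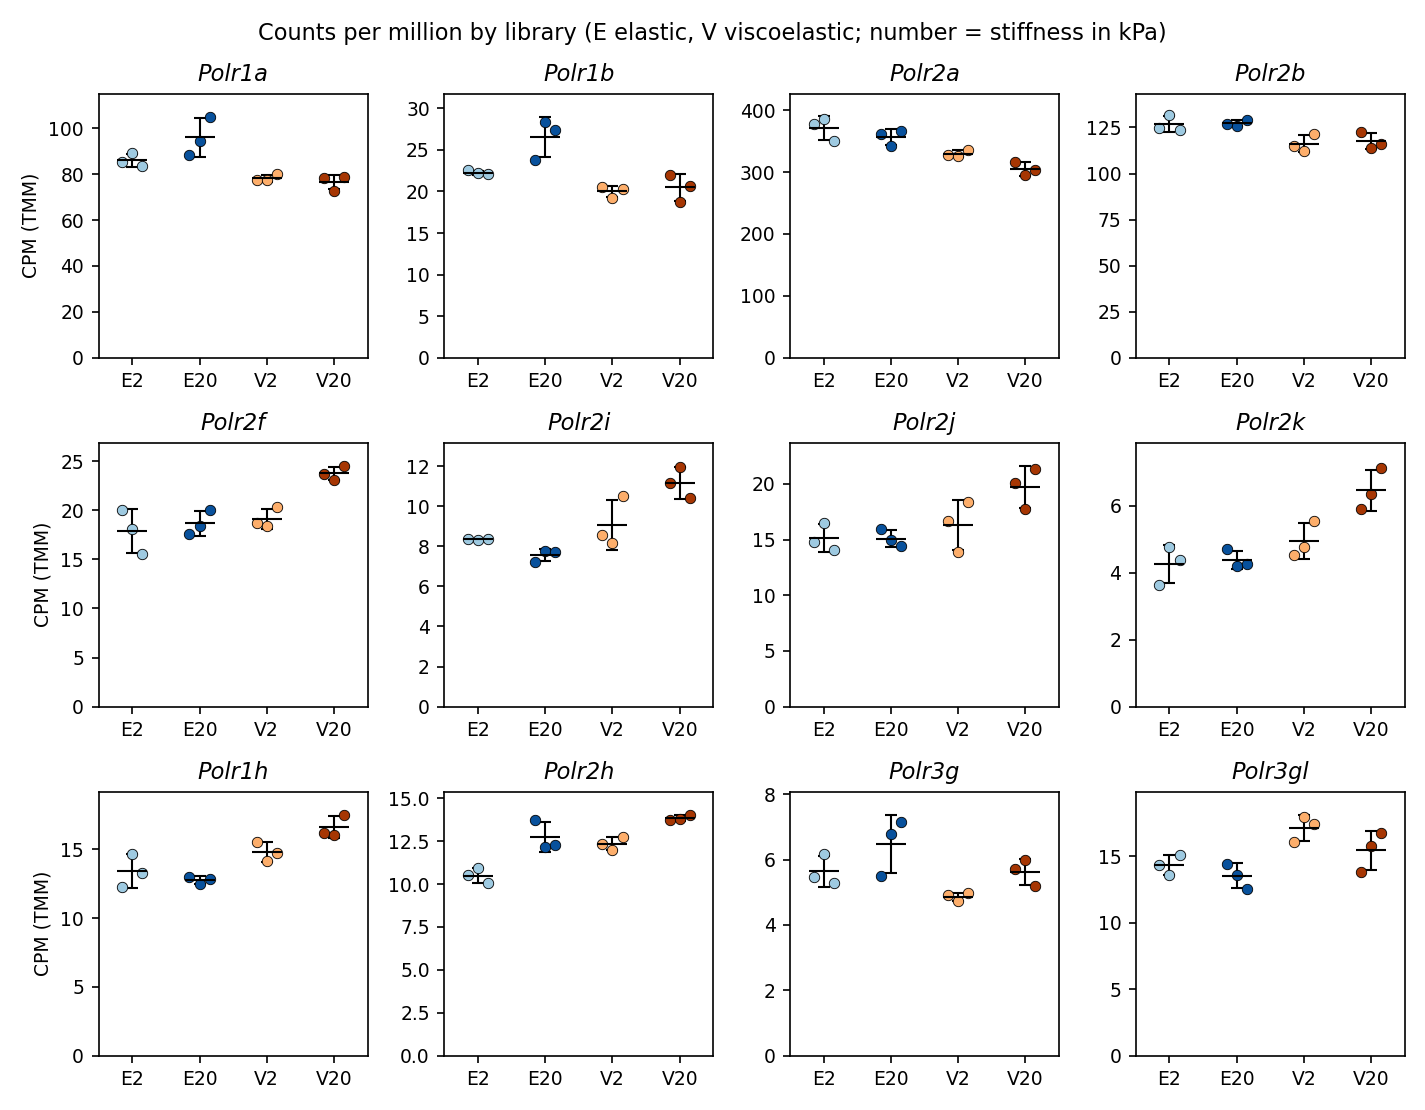
CPM of 12 members in each library (points), with the mean and SD of each group of 3 (bars) and axes from 0; E is elastic, V viscoelastic, and the number is the stiffness in kPa. Polr1a, Polr1b, Polr2a and Polr2b lie lower in every viscoelastic library than in any elastic one, Polr1b only just. Polr2i, Polr2k and Polr2f have their highest group mean on 20-kPa viscoelastic gels.

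Averaged over both stiffnesses, the viscoelastic effect was estimated with all 12 libraries and 16 members were called: 8 rose and 8 fell, against 19.6% and 20.4% of all tested genes. All 6 large catalytic subunits fell, while 7 of the small subunits rose and 2 fell. Polr1a fell by 0.23 ± 0.045, Polr1b by 0.26 ± 0.053 and Polr2a by 0.20 ± 0.042 on the log2 scale, with edgeR adjusted p of 0.00101, 0.0014 and 0.00173. Polr2b, Polr3a and Polr3b fell by 0.12 ± 0.038, 0.13 ± 0.049 and 0.15 ± 0.054, with edgeR adjusted p of 0.0202, 0.0442 and 0.0344. In Polr1a, Polr1b, Polr2a and Polr2b the 6 viscoelastic libraries all lay below the 6 elastic ones, whereas those of Polr3a and Polr3b overlapped. For Polr1b the gap was nearly nil, with 22.04 CPM in 20-kPa viscoelastic replicate 1 and 22.05 CPM in 2-kPa elastic replicate 3. How many of all tested genes separated likewise was not counted. The estimates of Polr3a and Polr3b stayed negative in every alternative run, but their calls were lost in 13 and 10 of 21 alternatives. For both, these included leaving out 2-kPa elastic replicate 1 or 2, 20-kPa elastic replicate 2 or 3, or 2-kPa viscoelastic replicate 2. Polr3a also lost its call without 2-kPa viscoelastic replicate 1 or without 20-kPa viscoelastic replicate 1 or 3, Polr3b without 20-kPa viscoelastic replicate 2, and Polr2b without 2-kPa elastic replicate 2.

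The small subunits that rose on average were Polr2k (0.39 ± 0.087), Polr2i (0.34 ± 0.068), Polr1h (0.26 ± 0.054), Polr2j (0.25 ± 0.071), Polr3gl (0.22 ± 0.059), Polr2f (0.22 ± 0.060) and Polr2h (0.18 ± 0.050), all as log2 differences with SE. Polr1has rose by 0.49 ± 0.075, and its 6 viscoelastic libraries all lay above the 6 elastic ones. Polr3g was among the 2 small subunits that fell (-0.21 ± 0.079). Scaled by total counts alone, 10 members rose and 3 fell in place of 8 and 8. That scaling also moved the median of all genes from 0.01 to 0.05, and it left all 6 large subunits lower, 3 of them called. The call of Polr3g was lost in 14 of 21 alternatives. These included leaving out 2-kPa elastic replicate 1 or 2, 20-kPa elastic replicate 2 or 3, any of the 2-kPa viscoelastic replicates, or 20-kPa viscoelastic replicate 1 or 3. Leaving out single libraries left 11 to 16 members called.

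Each library was also summarised by the mean log2 CPM of the 6 large subunits minus that of the 15 small ones, as a description with no test. The difference was 2.34 ± 0.024 (SD, n = 3; range 2.31 to 2.36) on 2-kPa elastic, 2.39 ± 0.068 (2.32 to 2.46) on 20-kPa elastic, 2.16 ± 0.012 (2.15 to 2.17) on 2-kPa viscoelastic and 1.96 ± 0.026 (1.94 to 1.99) on 20-kPa viscoelastic gels. Viscoelastic minus elastic thus came to -0.180 at 2 kPa and -0.426 at 20 kPa. Within Pol I, taking Polr1d and Polr1h as its small subunits, the difference went from 1.28 ± 0.114 on 20-kPa elastic to 0.71 ± 0.055 on 20-kPa viscoelastic gels. Within Pol II it went from 3.95 ± 0.053 to 3.47 ± 0.037, and within Pol III from 1.26 ± 0.069 to 1.07 ± 0.014. The 20-kPa elastic and viscoelastic libraries did not overlap in any of the 3 enzymes, whereas at 2 kPa those of Pol III did.

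**Figure D4:**
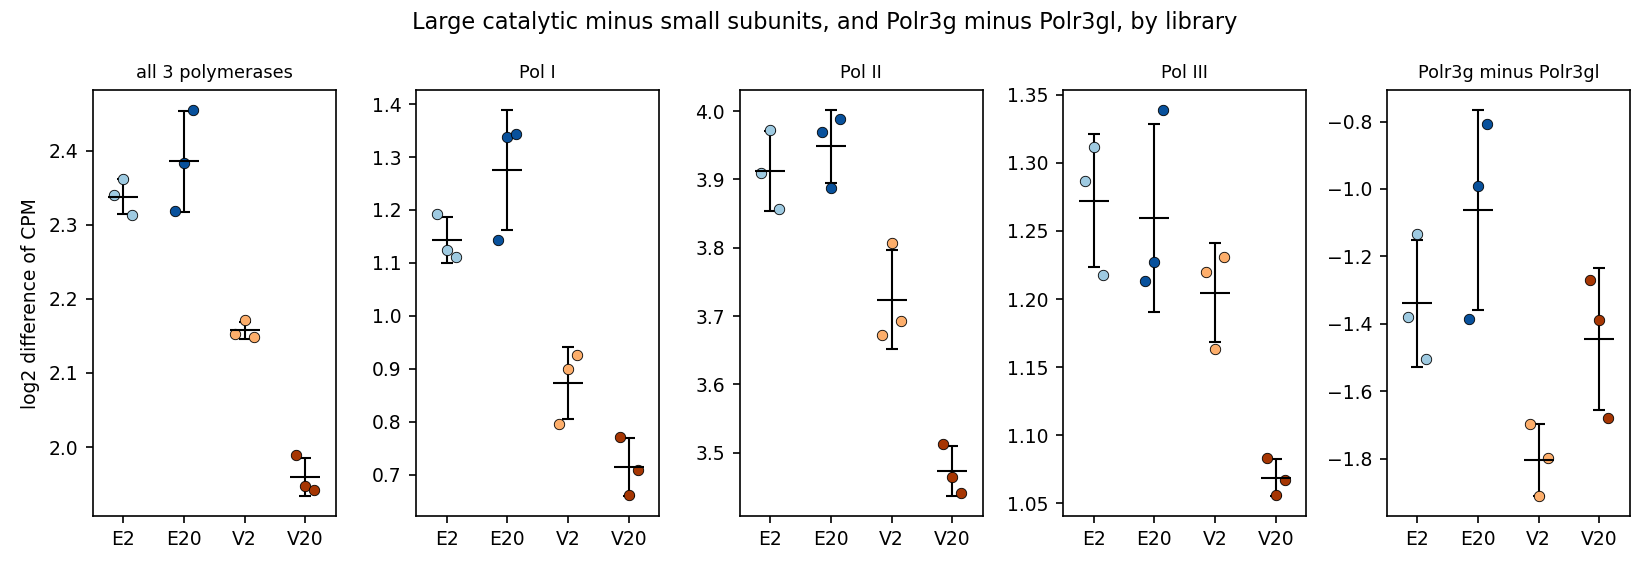
Mean log2 CPM of the large minus the small subunits in each library (points) for all 3 enzymes together and for each one, and Polr3g minus Polr3gl at the right, with the group mean and SD (bars, n = 3); axes do not start at 0 and differ between panels. The difference over all enzymes is lowest on 20-kPa viscoelastic gels, at 1.96 ± 0.026.

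Size of the subunit and length of its transcript go together, and length moved with gel type over the whole transcriptome. Exon length was 4667 to 11871 bases in the large, 2278 to 7710 in the intermediate and 624 to 4991 in the small subunits. Ranked by exon length and split into 5 equal groups from shortest to longest, the tested genes had a median log2 difference at 20 kPa of 0.17, 0.09, 0.02, -0.05 and -0.11. The slope of log2 CPM on log2 length, relative to the mean of the libraries, was 0.0053 to 0.0512 per doubling in the elastic and -0.0603 to 0.0002 in the viscoelastic libraries, with no overlap. Other genes with exons as long as those of the large subunits (5546 genes) had a median of -0.06 at 20 kPa, and 60.7% of them were lower. Those with exons as long as those of the small subunits (7716 genes) had a median of 0.09. The small subunits were not spread evenly over this range. The shortest of the 5 groups, with the median of 0.17, held 9 of the 15, the second 4 and the third 2.

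With an offset that removes the length trend in each library, the class medians no longer lay on opposite sides of 0. The median of the large subunits at 20 kPa was then -0.15 with 6 of 6 lower, while that of the small subunits turned from 0.15 to -0.02, with 7 higher and 8 lower. At 20 kPa, 4 members remained called in place of 9: Polr1a (-0.20), Polr1b (-0.33), Polr2i (0.35) and Polr1has (0.48). Averaged over both stiffnesses, 6 remained in place of 16: Polr1a (-0.11), Polr1b (-0.22), Polr2a (-0.13), Polr2b (-0.11), Polr3g (-0.23) and Polr1has (0.36), with edgeR adjusted p from 0.00194 to 0.042. None of the 7 small subunits that had risen on average was still called by edgeR, with Polr2i nearest (0.18, edgeR adjusted p = 0.0548). The large minus small difference came to -0.05002 at 2 kPa and -0.223 at 20 kPa. Size class and transcript length go together here, and their parts in these differences cannot be told apart.

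**Figure D5:**
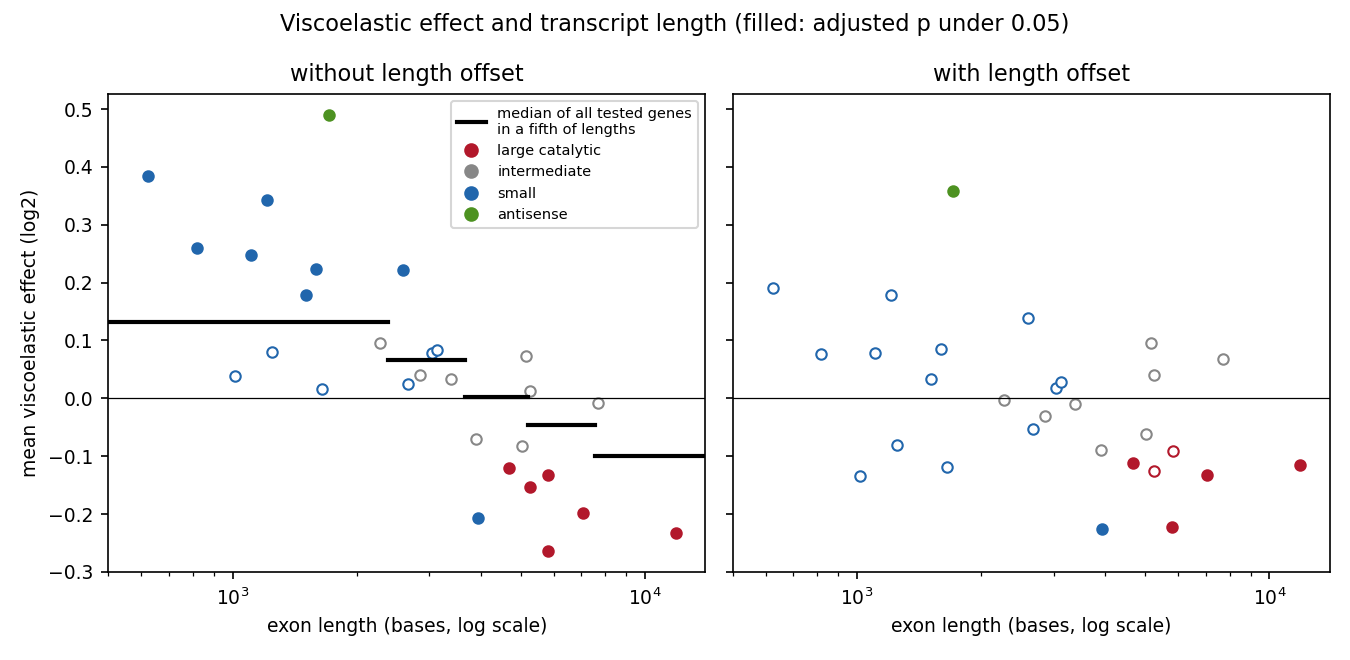
Mean viscoelastic effect (log2) of the members against exon length in bases on a log axis, without (left) and with (right) the length offset; black bars give the median of all tested genes in 5 equal groups by length, drawn within the plotted range, and filled points passed an adjusted p of 0.05. On the left most filled points of short transcripts lie above 0, and on the right 6 points are filled.

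Stiffness changed few members. On elastic gels, 3 members rose and 0 fell from 2 to 20 kPa by edgeR, against 6.81% and 7.14% of all tested genes, and DESeq2 called 4 that rose and 0 that fell. Of the 30 members, 7 had an unadjusted p below 0.05, as did 4180 of all 14542 tested genes. Polr1b rose from 22.5, 22.2 and 22.1 CPM on 2-kPa to 23.8, 28.4 and 27.4 CPM on 20-kPa elastic gels (log2 0.25 ± 0.075, edgeR adjusted p = 0.0367). Polr1d, shared by Pol I and Pol III and part of their assembly core, rose from 29.9, 28.3 and 29.7 to 33.1, 33.6 and 34.7 CPM (log2 0.20 ± 0.060, edgeR adjusted p = 0.0328). Polr2h rose with 13.7, 12.2 and 12.3 CPM on the 20-kPa elastic gels (log2 0.28 ± 0.072, edgeR adjusted p = 0.0184). None of the 3 overlapped.

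Pol I stood highest among the enzymes in this comparison, with a median of 0.16 over its 5 subunits against -0.01 for Pol II and -0.02 for Pol III. Polr1a had 85.4, 89.1 and 83.7 CPM on 2-kPa elastic gels, overlapping the 20-kPa values (log2 0.16 ± 0.063, edgeR adjusted p = 0.109). Polr1e, which acts in Pol I elongation and initiation, had 9.15 ± 0.751 CPM (SD, n = 3) on 2-kPa and 10.9 ± 0.460 CPM on 20-kPa elastic gels (log2 0.25 ± 0.081, edgeR adjusted p = 0.0555). With the length offset, Polr1a and Polr1e passed the test along with Polr1b, Polr1d and Polr2h. Of the 3 calls, 0 were left without 2-kPa elastic replicate 3 or without 2-kPa elastic replicate 1, and in the latter case Polr1e was called instead. Polr2h alone was left without 2-kPa elastic replicate 2 or without 20-kPa elastic replicate 2 or 3.

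On viscoelastic gels no member was called by edgeR between 20 and 2 kPa, where 1.58% of all tested genes rose and 0.695% fell. An unadjusted p below 0.05 was found for 10 of the 30 members and for 2768 of all 14542 tested genes. DESeq2 called 1, Polr2f, which had 18.7, 18.4 and 20.3 CPM on 2-kPa and 23.7, 23.1 and 24.5 CPM on 20-kPa viscoelastic gels, without overlap (log2 0.31 ± 0.084, edgeR adjusted p = 0.0617). Leaving out 2-kPa elastic replicate 3 also called Polr2f, and leaving out 2-kPa viscoelastic replicate 3 called Polr2i. Of the 15 small subunits, 14 had higher estimates at 20 kPa (median 0.15), and of the 6 large ones 2 were higher and 4 lower (median -0.04). With the length offset these medians were 0.09 and -0.01.

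No member showed a viscoelastic effect that differed between 2 and 20 kPa by edgeR's interaction test, in which 4.45% of all tested genes were called in the positive and 3.12% in the negative direction. DESeq2 also called 0. By edgeR, 3 of the 29 subunits had an unadjusted p below 0.05, as did 3267 of all 14542 tested genes. Polr2i came nearest, with 8.38, 8.30 and 8.35 CPM on 2-kPa elastic gels against 8.58, 8.14 and 10.5 CPM on their viscoelastic counterparts. Its effect was 0.12 ± 0.097 at 2 kPa and 0.56 ± 0.096 at 20 kPa (interaction 0.44 ± 0.136, edgeR adjusted p = 0.0612). Without 2-kPa viscoelastic replicate 3, its interaction passed the test.

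The 8 intermediate subunits gave no call in any comparison by edgeR with TMM scaling of all 12 libraries and no offset. Under alternatives, Polr1e was called between stiffnesses on elastic gels in 7, including DESeq2, and Polr1c was called for the mean viscoelastic effect in 3 and at 20 kPa in 1, scaling by total counts alone. Polr1c, which pairs with Polr1d in Pol I and Pol III, had 32.6 ± 0.725 CPM (SD, n = 3) on 20-kPa elastic gels against 35.7 ± 0.979 CPM on their viscoelastic counterparts (log2 0.13 ± 0.052, edgeR adjusted p = 0.0674). Polr3d and Polr3e, which act together in Pol III initiation and termination, stayed within 34.8 ± 1.497 to 36.1 ± 0.967 CPM and 26.0 ± 0.726 to 28.2 ± 1.03 CPM over the 4 groups.

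Genes that work with the polymerases were taken from lists of factors and counted in the 20-kPa comparison of gel types, in which 17.4% of all tested genes rose and 16.1% fell. Several of the lists lay near these shares, and none was tested as a list. Counts and estimates here and in the next paragraph were made without the length offset. Without it, 29.3% of the tested genes in the shortest of the 5 length groups rose at 20 kPa and 4.78% fell. In the longest group, 8.4% rose and 31.2% fell. The part of transcript length in the list results was not tested. Of 18 general factors of Pol II, 7 rose and 0 fell (median 0.11), among them Gtf2h5, a small subunit of the TFIIH complex (0.30 ± 0.056, edgeR adjusted p = 0.00113), and Gtf2b, which positions Pol II at the start site (0.27 ± 0.057, edgeR adjusted p = 0.00271). Of 21 pausing and elongation factors 5 rose and 1 fell (median -0.00347), including Hexim1, an inhibitor of the elongation kinase P-TEFb, at 0.39 ± 0.064, and Aff4, a scaffold of the super elongation complex, at -0.27 ± 0.086. Of 17 Pol III factors 3 rose and 4 fell (median 0.02). Snapc5, part of the complex that reads small nuclear RNA promoters, rose by 0.75 ± 0.089, and Maf1, a repressor of Pol III, by 0.22 ± 0.054. Gtf3c1 and Gtf3c4, subunits of the factor that binds transfer RNA genes, fell by 0.34 ± 0.069 and 0.29 ± 0.065.

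Of 8 Pol I factors, Rrn3, which recruits Pol I to its promoter, fell by 0.27 ± 0.067 (edgeR adjusted p = 0.00745), 0 rose, and the median was -0.01. Of 12 polymerase assembly factors 2 rose and 1 fell (median 0.04): the chaperone subunits Pfdn2 and Pih1d1 rose by 0.35 ± 0.056 and 0.26 ± 0.057, and Rpap1 fell by 0.32 ± 0.075. Of the 3 genes of mitochondrial transcription, Tfb2m rose by 0.25 ± 0.089 (edgeR adjusted p = 0.0447) and the others were not called. Brf2, which guides Pol III to promoters ahead of some genes, fell from 2 to 20 kPa on elastic gels (-0.41 ± 0.074, edgeR adjusted p = 0.00211). It also fell with viscoelasticity at 2 kPa (-0.36 ± 0.074) and was not called at 20 kPa (0.13 ± 0.074), and these effects differed by the interaction test (0.49 ± 0.105, edgeR adjusted p = 0.0101). The Pol I subunit listed under its earlier symbol Cd3eap was not a member by the rule, and its mean viscoelastic effect was 0.12 ± 0.042 (edgeR adjusted p = 0.0337).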

How the data were processed

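The authors trimmed reads with Trimmomatic, aligned them to mm10 with STAR and counted them per gene with featureCounts; the deposited values are raw counts without normalization. The annotation release, strand setting and handling of multimapping reads are not given in the sources used here. Genes with no count in any library numbered 10097. Counts were tested with edgeR 4.0.16 (R 4.3.3) by the quasi-likelihood test with TMM scaling after filterByExpr (minimum count 10, total 15), 1 coefficient per group over all 12 libraries, and Benjamini-Hochberg adjustment over 14542 genes at 0.05. CPM used TMM library sizes, except for the summed markers, which were scaled by total counts alone. Means of log2 CPM used a prior count of 2. Counts of 36626221 to 43612804 per library and a common coefficient of variation of 7.50% set the precision. Exon length, GC content and overlaps came from GENCODE M21, found for 95.0% of tested genes; offsets for them were lowess trends per library (span 0.3). DESeq2 1.42.0, other scalings, no filter, left-out libraries, the replicate block and the offsets were alternatives. Fits were tested on simulated data. Members, size classes and lists were chosen with earlier results of these data known, and no test was run over lists. Values by library were given for the 6 large subunits and for members called between 2 groups; other lists are counts with the 2 genes of lowest adjusted p each way. Counts and medians cover all members, of which 1 is not reported here by name or drawn in the figures.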

Additional observations from a re-analysis of the deposited data

How the results depend on the processing

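The number of members called was within 1.5 times its value, or moved as follows. At 2 kPa (4 called), it was 2 without the filter on low counts, 1 with only the 6 samples compared, 1 with the length offset, 0 at an adjusted p of 0.01, and 0 to 4 when 1 library was left out. At 20 kPa (9 called), it was 4 with the length offset, and 9 to 12 with a library left out. Between stiffnesses on elastic gels (3 called), it was 5 with the length offset, 0 at 0.01, and 0 to 4 with a library left out. On viscoelastic gels (0 called), it was 1 without the filter, 1 with DESeq2, and 0 to 1 with a library left out. For the mean viscoelastic effect (16 called), it was 6 with the length offset, 9 at 0.01, and 11 to 16 with a library left out. For the interaction (0 called) it was 0 to 1 with a library left out. The large minus small difference was -0.05002 at 2 kPa and -0.223 at 20 kPa with the length offset, and -0.192 to -0.168 and -0.459 to -0.391 with a library left out. The length offset removes the mean trend of the genes with exon length in each library, whatever its source. Differences of single genes or classes from that trend remain.

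Correlations of the deviations of same-numbered replicates ran from -0.16 to 0.31, and not every pair exceeded 0.1. Between the stiffnesses on viscoelastic gels they were 0.184, 0.308 and 0.0483. With 3 replicates per group, these values cannot decide whether the numbers pair the samples. The replicate block was therefore kept as an alternative. With the replicate block, 1 member was called at 2 kPa, 9 at 20 kPa, 2 between stiffnesses on elastic gels, 0 on viscoelastic gels, 14 for the mean effect and 0 for the interaction. With the block and both length and GC offsets, the counts were 1, 5, 5, 0, 6 and 0. For members called in a comparison, and for the large subunits between gel types, no sign changed: 733 values kept their side of the threshold, 137 lost the call and 7 gained it. Over all 30 members in 6 comparisons (180 pairs), 13 of the 148 uncalled pairs gained a call under at least 1 alternative, and 64 pairs, all uncalled, changed sign under at least 1; with the length offset at 20 kPa, 9 members did.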
